A study of Mus musculus with 15 samples.

Results

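The chemokines Cxcl9, Cxcl10, Cxcl11, Cxcl12, Cxcl14, Cxcl16, Cx3cl1, Ccl20 and Ccl28, which draw T cells and other lymphocytes into tissue, and Il15, a cytokine that keeps T cells and natural killer cells alive, were examined for open chromatin in mouse pancreatic tumour cells. A region of open chromatin (a peak) was counted for a gene when it overlapped the gene body or lay within 20 kb of it in the mm10 genome. Of 67945 peaks, 43 met this rule, and they belonged to 8 of the 10 genes. Cxcl12 and Cxcl14 had 0 peaks in their windows.

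The assay was ATAC-seq, in which a transposase cuts accessible DNA, so that reads pile up over open regulatory regions. Pancreatic tumour cell clones had been grown as subcutaneous tumours in C57BL/6 mice, and a sort of 50000 tumour cells gave each library 3 weeks after implantation. The animals received no treatment. The labels sort the clones by how many T cells their tumours hold, and the comparison asks where the chromatin of the tumour cells differs between those classes. The T cell high group is made of clones 7160c2, 6620c1, 6555c3, 6499c4, 6421c2 and 2838c3, 1 library each (n = 6). The T cell low group is made of clones 6694c2, 6556c3, 6499c3, 6422c1, 6419c5, 6419c1 and 2699c4, 1 library each (n = 7). All 13 therefore share the strain, the site of implantation, the time and the sort, and differ by clone. The labels hold 15 samples, and the 2 classed as T cell intermediate are not part of the comparisons here. Each library is 1 clone, and clones 6499c4 and 6499c3, like 6419c5 and 6419c1, share the number that precedes the letter c, read here as the parental tumour.

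CXCL9, CXCL10 and CXCL11 are the ligands of CXCR3, a receptor on activated T cells, and interferon gamma induces them. CXCL16 and CX3CL1 are made as membrane proteins that ADAM10 and ADAM17 cut from the cell surface, and they bind CXCR6 and CX3CR1. CCL20 binds CCR6, CCL28 binds CCR10 at epithelial surfaces, CXCL12 binds CXCR4, and IL15 is held on IL15RA at the surface of the producing cell and presented to lymphocytes.

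Counts in peaks summed to between 968296 (7160c2) and 7369228 (6419c1) per library, so that 3 counts, the floor used for a value near 0, corresponded to between 0.418 and 2.92 CPM (the count relative to the scaled library total). Among 10 genes of pancreatic duct cells, 9 had a peak at the gene start or end, and their summed CPM was 133 to 230 in T cell high and 135 to 255 in T cell low clones; Epcam had no such peak. Of 12 markers of T and natural killer cells only Cd4 had one, at 5.06 to 13.95 CPM in T cell high and 4.18 to 18.03 CPM in T cell low clones. Of 8 pan-leukocyte markers 6 had a peak, summing to 35.4 to 73.9 CPM in T cell high and 43.9 to 69.2 CPM in T cell low clones. The sums for macrophage and dendritic cell markers (3 of 12 with a peak) were 36.02 to 65.4 CPM in T cell high and 31.0 to 72.8 CPM in T cell low clones. Fibroblast markers (2 of 9) gave 21.9 to 42.8 CPM in T cell high and 25.5 to 41.5 CPM in T cell low clones, and the endothelial marker Egfl7 (1 of 8) gave 4.20 to 9.73 CPM in T cell high and 4.97 to 16.4 CPM in T cell low clones. Both groups overlapped in range for every one of these lists.

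Promoter sequence (the 250 bases before the annotated start, RefSeq, build GRCm38.p6) was on hand for 7 of the 10 genes. Of these, 5 are shown as examples of genes with a peak at the start and of genes without one. Each runs 5′ to 3′ on the coding strand and ends at the base before the gene start. Capitals mark matches, and both strands were searched for each motif. The interferon-stimulated response element (ISRE) was taken as a GAAA repeat with any 2 bases between its copies. The NF-kB element was taken as GGG and then TTCC with any 3 bases between them. An AP-1 element is TGANTCA. The TATA box was searched as TATAAA and the GC box as GGGCGG. A gamma-activated sequence was searched as TTCNNNGAA. Motif matches overlap only in Cxcl12, where the last 2 GC boxes share a base. Cxcl10 (chr5:92348890-92349139, minus strand), Cx3cl1 (chr8:94771930-94772179, plus strand) and Ccl20 (chr1:83116516-83116765, plus strand) had a peak at the start. Cxcl9 (chr5:92328080-92328329, minus strand) and Cxcl12 (chr6:117168285-117168534, plus strand) had none.
Cxcl10: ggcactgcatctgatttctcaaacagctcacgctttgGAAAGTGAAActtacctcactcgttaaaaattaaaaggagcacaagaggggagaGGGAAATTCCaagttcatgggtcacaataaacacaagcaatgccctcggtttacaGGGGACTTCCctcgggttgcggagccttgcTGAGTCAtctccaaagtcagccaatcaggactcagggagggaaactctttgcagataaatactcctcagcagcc
Cx3cl1: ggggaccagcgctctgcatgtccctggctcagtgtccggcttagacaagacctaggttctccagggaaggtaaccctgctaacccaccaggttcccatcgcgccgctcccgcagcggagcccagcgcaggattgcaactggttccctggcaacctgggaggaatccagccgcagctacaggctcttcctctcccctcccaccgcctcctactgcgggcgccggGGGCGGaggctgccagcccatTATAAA
Ccl20: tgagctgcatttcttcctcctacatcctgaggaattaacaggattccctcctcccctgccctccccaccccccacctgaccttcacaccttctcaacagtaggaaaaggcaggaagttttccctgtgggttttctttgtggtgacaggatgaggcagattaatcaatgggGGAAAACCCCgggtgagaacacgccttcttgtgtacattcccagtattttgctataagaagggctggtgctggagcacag
Cxcl9: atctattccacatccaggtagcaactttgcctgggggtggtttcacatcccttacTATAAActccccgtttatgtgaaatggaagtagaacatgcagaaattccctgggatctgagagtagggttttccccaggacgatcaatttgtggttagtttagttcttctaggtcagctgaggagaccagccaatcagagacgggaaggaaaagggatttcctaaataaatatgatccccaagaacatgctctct
Cxcl12: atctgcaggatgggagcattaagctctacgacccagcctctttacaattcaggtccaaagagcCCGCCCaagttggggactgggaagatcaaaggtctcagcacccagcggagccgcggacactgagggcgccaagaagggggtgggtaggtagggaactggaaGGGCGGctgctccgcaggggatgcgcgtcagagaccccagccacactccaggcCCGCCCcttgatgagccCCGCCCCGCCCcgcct

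The Cxcl10 promoter held 1 ISRE match beginning 213 bases before the start, 2 NF-kB matches at 159 and 104 bases and 1 AP-1 match at 74 bases. Of 32841 promoters of the same length, 2.98% held an ISRE match, 4.65% an NF-kB match and 6.75% an AP-1 match. Ccl20 had 1 NF-kB match, on the minus strand, 80 bases before its start. Cx3cl1 had a TATA match 6 bases before the annotated start and a GC box at 27 bases, and the Cxcl9 TATA match lay at 195 bases. TATA matches stood in 12.4% and GC boxes in 32.7% of all promoters. Cxcl12 had 5 GC boxes, 14 CpG dinucleotides and 64.4% G or C, against a median of 6 CpG and 52.4% over all promoters, and Cx3cl1 had the same 14 CpG with 64.8% G or C. The promoter of Cxcl14, not shown, held 1 ISRE match, 1 gamma-activated sequence (in 7.02% of promoters) and 16 CpG, and that of Ccl28 held 1 GC box and 4 CpG. G and C content did not separate Cx3cl1, with a peak at its start, from Cxcl12, with none. These matches describe the letters and not bound sites.

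The 3 CXCR3 ligand genes lie side by side on chromosome 5. Cxcl9 (92321331 to 92328079) had 2 peaks in its window, the nearer of them 10820 bp from the gene body and 17568 bp from the gene start, at the start of the neighbouring gene Sdad1 (92309372 to 92310511). Cxcl10 (92346638 to 92348889) had 4 peaks, one of which covered its start (92348622 to 92349215). Cxcl11 (92359544 to 92363296), which the RefSeq table lists as a transcribed pseudogene in this assembly, had 7 peaks, 4 of them shared with Cxcl10, and one covered its upper end (92363164 to 92363504). All 7 also lie inside the record of Art3. Cxcl16 (chromosome 11, 70454389 to 70459984) had 5 peaks, of which the one over its end (70458502 to 70460275) also overlaps Zmynd15. Cx3cl1 (chromosome 8, 94772180 to 94782427) had 8 peaks, one over its start (94771906 to 94772813). Ccl20 (chromosome 1, 83116766 to 83119167) had 3, one over its start (83116532 to 83117058). Ccl28 (chromosome 13, 119623819 to 119654359) had 6, none of which covered its start: the nearest ended 3538 bp away. Il15 (chromosome 8, 82331624 to 82403252) had 12, of which the one over its upper end spanned 82401715 to 82403607. In all, 6 of the 10 genes had a peak at the start, or within 1 kb of a gene end where the strand was not on hand. By the start rule alone, 3 of the 7 genes with a promoter entry had a peak, against 55.4% of 17492 such genes over the genome, and within 20 kb 78.4% of 21887 protein-coding genes had a peak. The gene table holds no exons, so the position of a peak relative to exons, introns or UTRs was not analysed here. Of the 43 peaks, 13 overlapped the body or start of another protein-coding gene and cannot be assigned to one gene by position alone.

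**Figure D1:**
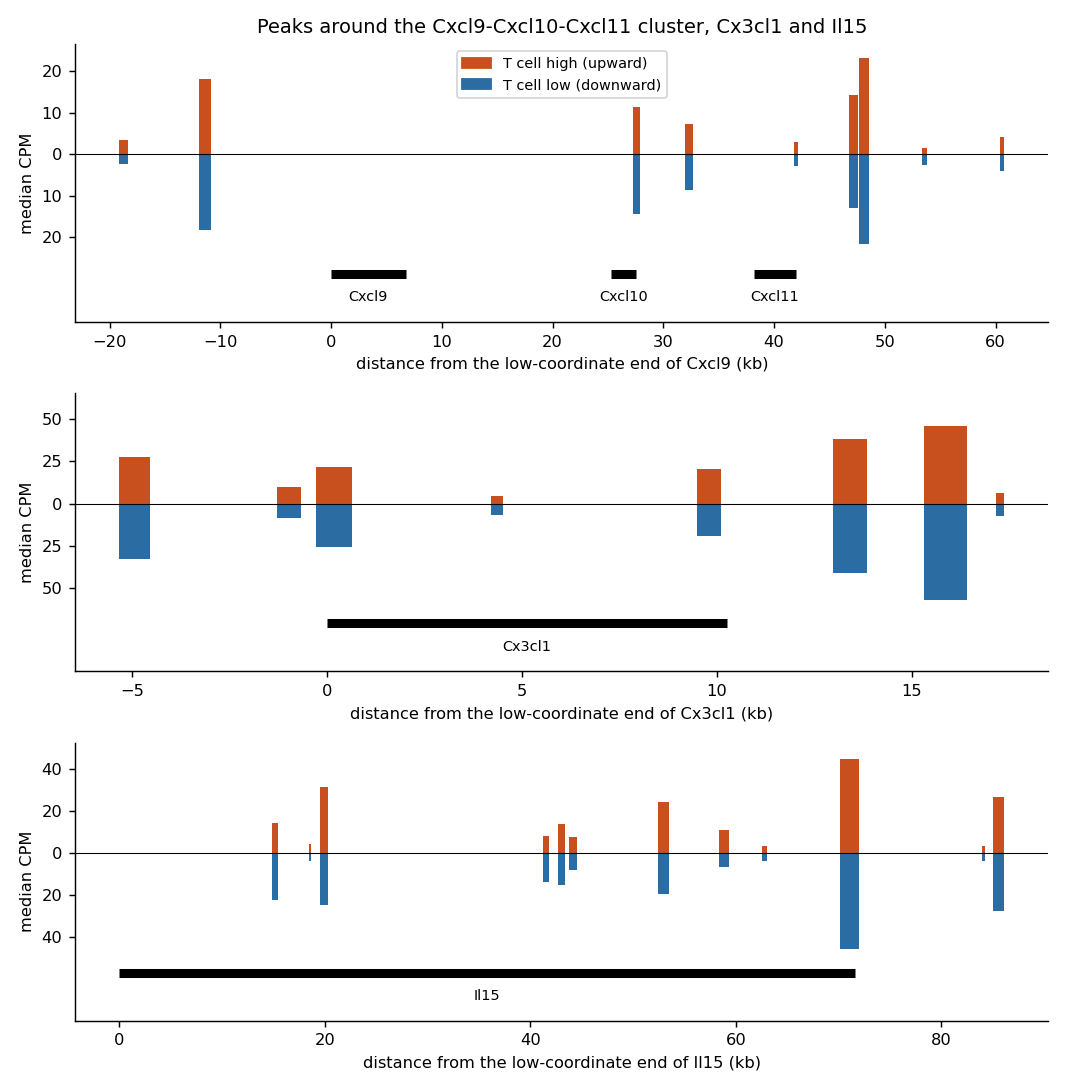
Median CPM of every peak around Cxcl9, Cxcl10 and Cxcl11 (top), Cx3cl1 (middle) and Il15 (bottom) against distance in kb, with T cell high clones (n = 6) drawn upward, T cell low clones (n = 7) downward and gene bodies as black bars. Cxcl10 has a peak at its start while the Cxcl9 body and its surroundings up to 10820 bp away have none, and upward and downward bars are of like height at most peaks.

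No tested peak at these genes was called different between the T cell high clones and the T cell low clones. Low-count filtering left 37 of the 43 peaks for testing. By edgeR's quasi-likelihood test 0 of the 37 had a Benjamini-Hochberg adjusted p under 0.05, and over all 59252 tested peaks the share was 0.0%. At an unadjusted p under 0.05 the count was likewise 0 of 37, where 6.83% of all tested peaks passed. DESeq2 called 0 of the 37, with 0 at an unadjusted p under 0.05, and called 0.0793% of all peaks. In none of the 37 peaks were T cell high clones fully separated from T cell low clones, which held for 0.162% of all tested peaks. Log2 fold changes (T cell high over T cell low) ranged from -0.47 to 0.73, with standard errors (SE) of 0.23 to 0.63. Of them 23 were above 0 and 14 below, with a median of 0.16, against 51.3% above 0 and a median of 0.01 over all tested peaks. Il15 gave 9 above and 3 below 0, and Cx3cl1 gave 6 above and 2 below. Both genes lie on chromosome 8, in surroundings where clone 6421c2 was high (described below), and peaks of 1 gene are not independent. No test was run over the set. The smallest unadjusted p was 0.0732 (adjusted p = 0.759), at a peak inside Cx3cl1. The median SD over clones of log2 (CPM + 1) was 0.61 at the 37 peaks and 0.63 at all tested peaks. These sets were not matched in level, with a median of the mean CPM of 14.55 and 9.52. Peaks that pass no test here are not shown to be equal between the groups. As each library pools cells, fewer cells with an open region and less openness per cell cannot be told apart.

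**Figure D2:**
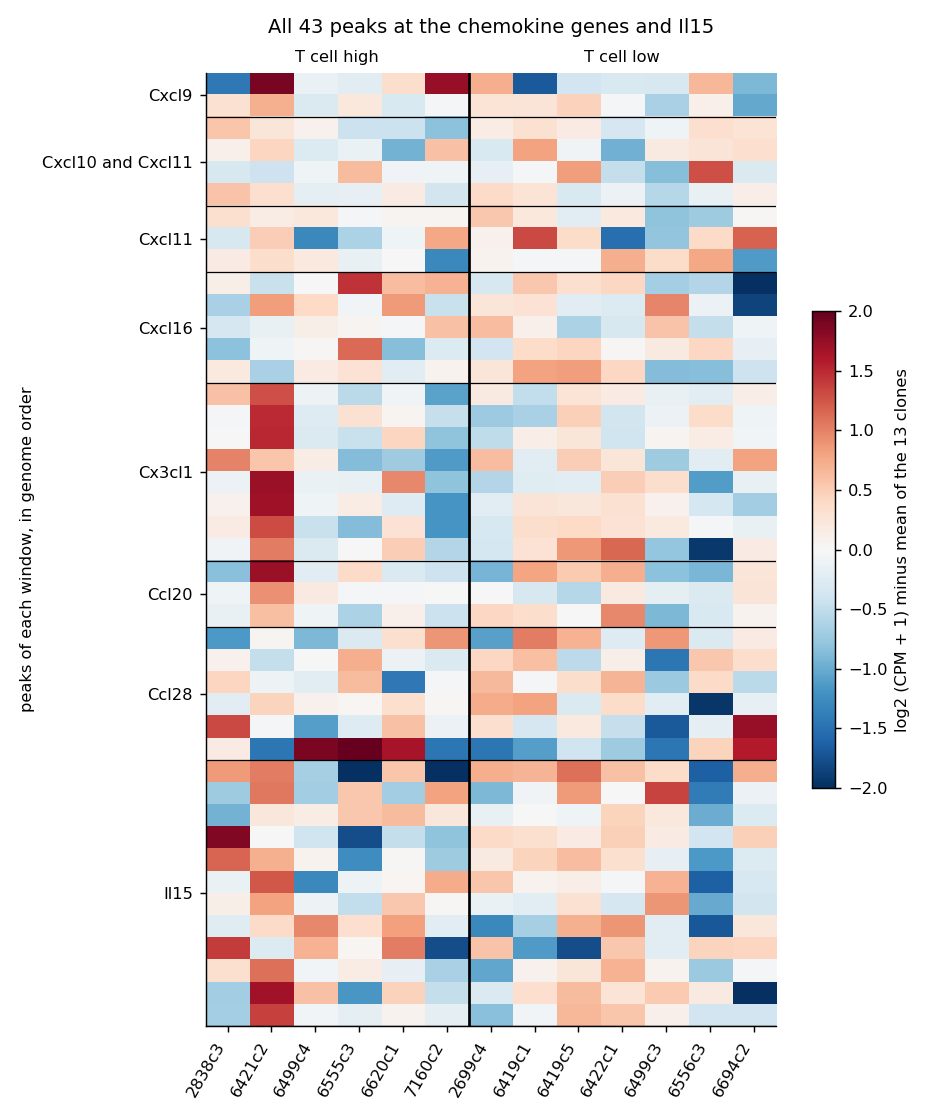
Accessibility of all 43 peaks (rows, by gene and in genome order) in the 13 clones (columns, T cell high left of the line and T cell low right of it), as log2 (CPM + 1) minus the mean of the 13 clones, limited to 2 in either direction. The red column of clone 6421c2 at the Cx3cl1 rows stands out, and no gene's rows are red on one side of the line and blue on the other.

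**Figure D3:**
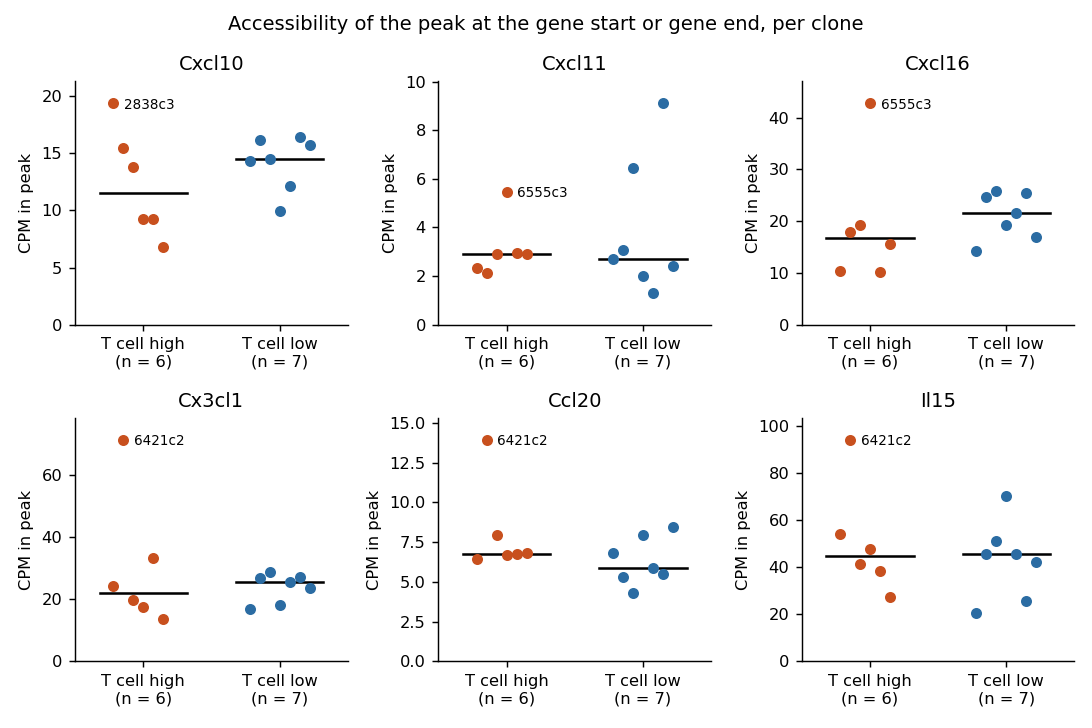
CPM in the peak at the gene start or gene end of the 6 genes that have one, each point 1 clone and each bar the median, with T cell high (n = 6) left of T cell low (n = 7). Both groups overlap in all 6 panels, and the highest point of each T cell high group is a clone named in the panel.

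Cxcl10 was the only CXCR3 ligand gene with a well-covered peak at its start. This peak, which spans the ISRE, NF-kB and AP-1 matches shown above, had 6.81, 11.5 and 19.4 CPM (lowest, median, highest) in T cell high clones and 9.94, 14.5 and 16.4 CPM in T cell low clones. Clone 2838c3 lay above all T cell low clones, while 6555c3, 6620c1 and 7160c2 lay below them all, so the T cell high clones bracketed the T cell low ones. The log2 fold change was -0.16 (SE 0.30, edgeR adjusted p = 0.947). Outside the start, the peak of the Cxcl10 window with the smallest p (92368092 to 92368942) had a log2 fold change of 0.13 (adjusted p = 0.959), and this and the other distal peaks lie in Art3. The 3 tested Cxcl10 peaks ran from -0.16 to 0.13.

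At the upper end of Cxcl11 the peak was weak and did not pass the filter on low counts. It had 2.12, 2.92 and 5.46 CPM (lowest, median, highest) in T cell high clones and 1.31, 2.72 and 9.11 CPM in T cell low clones, close to the floor of the shallower libraries. The T cell high clones lay within the T cell low range, and the lowest clone (6499c3) and the highest (6556c3) were both T cell low. The tested Cxcl11 window peak with the smallest p (92369034 to 92369882) had a log2 fold change of 0.17 (SE 0.25, edgeR adjusted p = 0.932).

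For Cxcl9 the nearer peak, the one at the Sdad1 start, had 13.5, 18.1 and 28.5 CPM (lowest, median, highest) in T cell high and 7.84, 18.2 and 23.6 CPM in T cell low clones (log2 fold change 0.16, SE 0.29, adjusted p = 0.947). One clone, 6421c2, exceeded all T cell low clones there, and without it the log2 fold change was 0.0034. The farther peak (92302218 to 92302975), inside Sdad1, was too low to be tested, at 0.517, 3.48 and 14.2 CPM in T cell high and 0.279, 2.29 and 5.78 CPM in T cell low clones. Only 6421c2 and 7160c2 stood above the T cell low clones. Both peaks belong to Sdad1 by position as much as to Cxcl9.

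The membrane chemokine genes Cxcl16 and Cx3cl1 showed clones that stood apart, not groups. The peak over the Cxcl16 end had 10.1, 16.7 and 42.8 CPM (lowest, median, highest) in T cell high and 14.3, 21.6 and 25.8 CPM in T cell low clones. The 42.8 CPM belonged to 6555c3, far above the next T cell high clone at 19.3 CPM, and 2838c3 and 6620c1 lay below every T cell low clone. The log2 fold change was -0.12 (SE 0.31, edgeR adjusted p = 0.965), and without 6555c3 it was -0.53. By edgeR the largest fold change of the 37 peaks was also at Cxcl16, in a peak inside Arrb2 (70437486 to 70437832) with 2.12, 4.55 and 10.5 CPM in T cell high against 0, 2.38 and 5.16 CPM in T cell low clones. It held 0 to 37 counts per library. The log2 fold change there was 0.73 (SE 0.53, edgeR unadjusted p = 0.185, adjusted p = 0.833). It was 0.37 without 6555c3 and 0.43 with limma-voom, where an Il15 peak (82394165 to 82394691) had the larger value of 1.33. Summed over the 5 peaks, Cxcl16 had 72.3 to 128 CPM in T cell high and 74.2 to 118 CPM in T cell low clones. The highest of the 5 lies at the start of another gene, Med11 (70451741 to 70452611). Its mean over all clones was 50.6 CPM, against 20.3 CPM at the Cxcl16 end peak, so the sum largely reflects the Med11 start.

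The Cx3cl1 start peak had 13.6, 22.02 and 71.4 CPM (lowest, median, highest) in T cell high and 17.01, 25.5 and 29.0 CPM in T cell low clones. Clone 6421c2 held the 71.4 CPM, and 6620c1 followed with 33.3 CPM, while 7160c2 lay below every T cell low clone. The log2 fold change was 0.35 (SE 0.31, edgeR adjusted p = 0.869), and without 6421c2 it was -0.12. Inside the gene, near its far end, the peak with the smallest p of all (94781674 to 94782288) had 12.7, 20.8 and 78.1 CPM in T cell high and 10.02, 19.3 and 32.5 CPM in T cell low clones. Again 6421c2 and then 6620c1, at 45.5 CPM, were above all T cell low clones and the rest overlapped. Its log2 fold change by edgeR was 0.66 (SE 0.35, adjusted p = 0.759), and 0.20 without 6421c2. The 8 Cx3cl1 peaks ran from -0.14 to 0.66, with 6 above 0 and 6 highest in 6421c2. Their sum was 90.5, 187 and 525.6 CPM in T cell high and 157, 194 and 230 CPM in T cell low clones. For the sum the log2 fold change was 0.27 (adjusted p = 0.849), and -0.15 without 6421c2.

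The Ccl20 start peak, which holds the NF-kB match, had 6.46, 6.78 and 13.9 CPM (lowest, median, highest) in T cell high and 4.29, 5.89 and 8.45 CPM in T cell low clones. The 13.9 CPM was again 6421c2, with the other 5 clones of its group lying within the T cell low range at no more than 7.93 CPM. By edgeR the log2 fold change was 0.37 (SE 0.34, adjusted p = 0.875), and 0.14 without 6421c2. A peak 16465 bp from the gene body (83099540 to 83100301) carried the clone's largest excess at this gene, 50.6 CPM in 6421c2 against at most 26.1 CPM in T cell low clones and a T cell high median of 12.1 CPM. The third peak, 703 bp beyond the other gene end (83119870 to 83120545), gave a log2 fold change by edgeR of -0.24 (SE 0.31, adjusted p = 0.919).

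Ccl28, known for its expression at mucosal epithelium, had no peak at its start. The nearest one (119619717 to 119620281) had 2.58, 6.36 and 13.6 CPM (lowest, median, highest) in T cell high and 2.72, 7.84 and 15.05 CPM in T cell low clones. The groups overlapped over nearly their whole range, with a log2 fold change of -0.47 (SE 0.45, edgeR adjusted p = 0.881), the lowest of the 37. All 3 tested Ccl28 peaks were below 0, up to -0.10, and 3 more were too low to test. Among these a peak 7084 bp past the gene body (119661443 to 119661829) had 0, 4.83 and 12.2 CPM in T cell high and 0, 0.663 and 7.24 CPM in T cell low clones. Clones 6499c4, 6555c3 and 6620c1 exceeded every T cell low clone there, whereas 6421c2 and 7160c2 had 0 counts, which allows up to 2.92 CPM in 7160c2, the shallowest library. With no filter on low counts, the log2 fold change of this peak by edgeR was 1.92 (SE 0.92, unadjusted p = 0.0496, adjusted p = 0.679).

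Il15 had the most peaks, and its upper-end peak was the broadest, at 1893 bp. That peak had 27.3, 44.7 and 94.2 CPM (lowest, median, highest) in T cell high and 20.4, 45.5 and 70.3 CPM in T cell low clones. The medians were alike and only 6421c2, at 94.2 CPM, lay outside the T cell low range. The log2 fold change was 0.24 (SE 0.28, edgeR adjusted p = 0.905) and -0.03 without 6421c2. Within the gene the peak with the smallest p (82390008 to 82390941) had 6.72, 10.7 and 16.8 CPM in T cell high and 1.82, 6.87 and 15.9 CPM in T cell low clones (log2 fold change 0.50, SE 0.43, adjusted p = 0.861). Across the 12 peaks the fold changes ran from -0.45 to 0.70, 9 above 0 and 3 below. At another intragenic peak (82372827 to 82373450) 2838c3 alone reached 42.4 CPM, while no T cell low clone exceeded 15.7 CPM and 4 T cell high clones lay below all of them. Its log2 fold change was -0.01, and -0.91 without 2838c3 (unadjusted p = 0.0180, adjusted p = 0.350). Summed over the gene, Il15 had 153 to 357 CPM in T cell high and 100.2 to 255 CPM in T cell low clones (log2 fold change 0.18, adjusted p = 0.879).

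Neither Cxcl12, the CXCR4 ligand that stromal cells make, nor Cxcl14, an epithelial chemokine, had open chromatin listed nearby. The nearest peak to Cxcl12 (chromosome 6, 117168535 to 117181368) lay 249601 bp from its body, and the nearest to Cxcl14 (chromosome 13, 56288643 to 56296811) lay 90667 bp away. A region that did not reach the threshold behind the merged peak list would not be listed.

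Taken by gene, by summing all peaks in each window, 0 of the 7 protein-coding members with peaks had an adjusted p under 0.05 by edgeR, against 0.00595% of 16807 genes tested, and 0 had an unadjusted p under 0.05, against 7.06%. The sums had log2 fold changes of 0.35 for Cxcl9 (adjusted p = 0.823), 0.27 for Cx3cl1, 0.18 for Il15, 0.05 for Ccl20, 0.03 for Cxcl16, 0.01 for Ccl28 and -0.04 for Cxcl10. For Cx3cl1, Ccl20 and Il15 the sign turned without 6421c2, to -0.15, -0.29 and -0.0018. The Cxcl9 sum, made of the 2 peaks at Sdad1 alone, was 0.13 without 6421c2. The Cxcl16 sum includes the peak at the Med11 start.

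**Figure D4:**
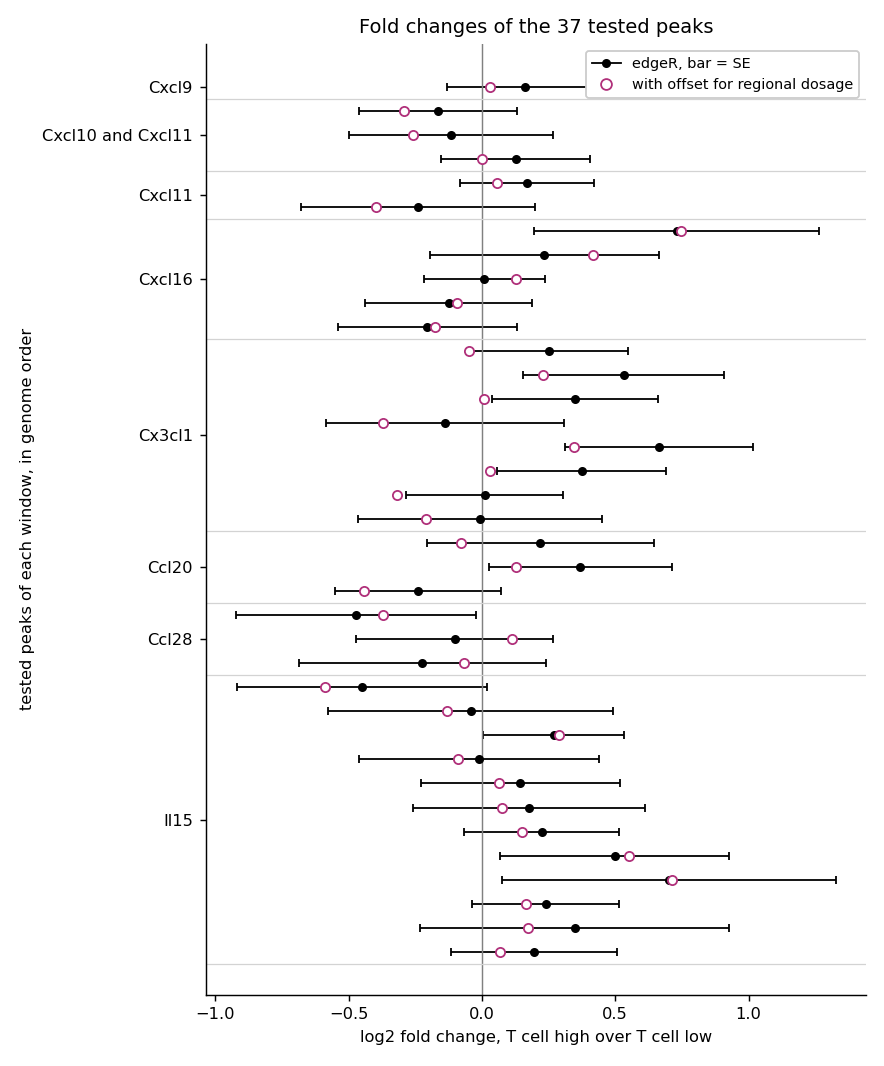
Log2 fold change (T cell high over T cell low, edgeR) of each tested peak, by gene and in genome order, with bars for 1 SE and open circles for the fit with an offset for the median of non-member peaks within 2 Mb. All filled points lie between -0.47 and 0.73, and the Cx3cl1 circles lie left of their points.

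Clone 6421c2 was high in the surroundings of Cx3cl1, Il15, Ccl20 and Cxcl10, not at these genes alone. Among the 166 other tested peaks within 2 Mb of Cx3cl1, its median was 2.27-fold (log2 1.18) above the mean of the 13 clones, and the next clone, 2838c3, was at log2 0.19. Around Il15, on the same chromosome, the clone's median was 1.48-fold (log2 0.56), next to 0.30 in 6422c1. It was 1.43-fold (log2 0.52) around Ccl20 and log2 0.43 around Cxcl10, but -0.32 around Cxcl16 and -0.09 around Ccl28. Other clones had regional rises near that of 6421c2 around Cxcl10, with log2 0.41 in 2699c4 around Cxcl16 and 0.44 in 6419c1 around Ccl28 (29 other peaks). These were below the log2 1.18 of 6421c2 around Cx3cl1. The start or end peaks lay above these surroundings by a log2 difference of 0.36 at Cx3cl1, 0.56 at Il15 and 0.47 at Ccl20, and below them by -0.18 at Cxcl10. With offsets for the surroundings in the edgeR fit, the log2 fold change of the start or end peak was 0.01 at Cx3cl1 (0.35 without offsets), 0.16 at Il15 (0.24), 0.13 at Ccl20 (0.37) and -0.29 at Cxcl10 (-0.16), and at the Cx3cl1 intragenic peak it was 0.34 (0.66). The DNA copy number of the clones was not measured here, and its part in these levels was not tested.

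**Figure D5:**
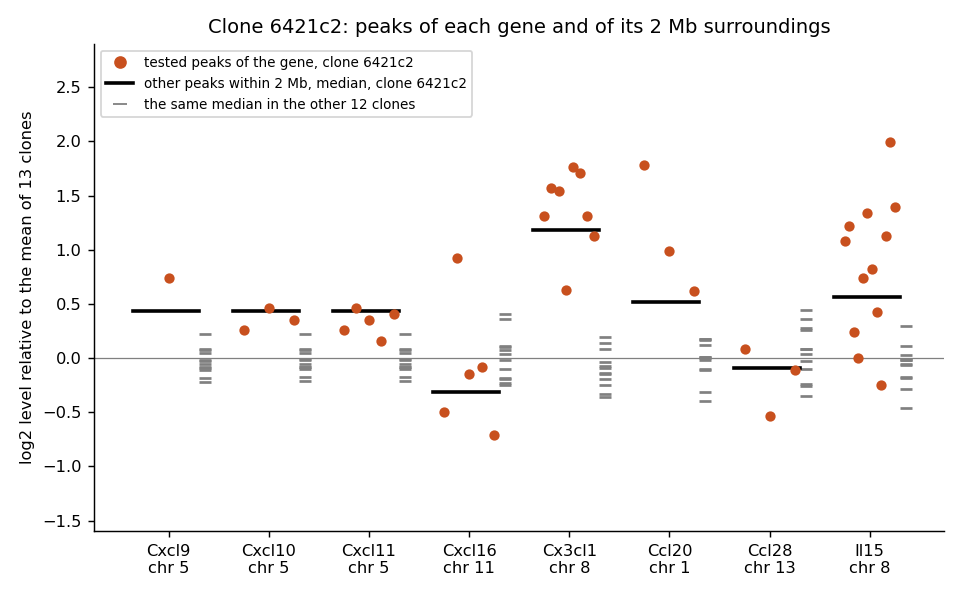
Level of clone 6421c2 relative to the mean of 13 clones (log2) at each tested peak of a gene (points) and as the median of the other tested peaks within 2 Mb (black line), with the same median for the other 12 clones as grey ticks. At Cx3cl1 the black line, at log2 1.18, lies far above every tick, and the gene's points scatter around and above it.

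Clones 6499c4 (T cell high) and 6499c3 (T cell low), of 1 parental tumour, allow a comparison within a tumour line, with 1 library each and so no replicate check. Of the 37 peaks 18 (48.6%) were higher in 6499c4, and of all tested peaks 50.5% were. At the start or end peak 6499c4 and 6499c3 had 13.8 and 12.1 CPM at Cxcl10, 19.3 and 21.6 at Cxcl16, 19.8 and 25.5 at Cx3cl1, 7.93 and 5.89 at Ccl20, and 41.6 and 45.5 at Il15. These ratios ran from 0.774-fold at Cx3cl1 to 1.35-fold at Ccl20. The surroundings within 2 Mb of Ccl20 also differed, with medians of log2 0.17 in 6499c4 and -0.40 in 6499c3. Around Cx3cl1 the medians were -0.15 in 6499c4 and -0.14 in 6499c3. Clones 6419c1 and 6419c5, both T cell low and of 1 parental tumour, differed by 0.899-fold at Il15 to 1.23-fold at Ccl20 over the same genes. At Cxcl11, with 18 counts in 6499c4 and 4 in 6499c3, the ratio was 2.23-fold, and in the T cell low pair, with 22 and 12 counts, it was 0.476-fold.

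Per kb of peak, the start or end peak was most open at Cx3cl1, with 29.4 ± 16.01 CPM per kb (SD, n = 13), then at Il15 with 24.5 ± 10.2 and at Cxcl10 with 22.4 ± 6.05. Lower levels were found at Ccl20 (13.5 ± 4.45), Cxcl16 (11.4 ± 4.79) and Cxcl11 (10.3 ± 6.41 CPM per kb). Neighbours in each of these 3-gene sets were closer to each other than 1 SD, while Cxcl10 and Ccl20, on either side of the gap, differed by more than the SD of either. Over all genes with a tested start or end peak the median was 25.8 CPM per kb, so that Cx3cl1 stood above 57.3%, Il15 above 47.0% and Cxcl10 above 42.0% of them, and Ccl20, Cxcl16 and Cxcl11 above 19.5%, 13.8% and 10.8%. The Cx3cl1 mean includes clone 6421c2, which had 71.4 CPM in that peak. By group, the Cx3cl1 mean was 33.05 ± 23.6 CPM per kb in T cell high clones (SD, n = 6) and 26.4 ± 5.11 in T cell low clones (SD, n = 7).

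Levels at the start or end peaks were also compared between genes over the clones. Of the 15 pairs, 0 had a correlation of log2 CPM with an adjusted permutation p under 0.05 (smallest adjusted p 0.361 for Pearson's r and 0.483 for Spearman's rho). The closest pair, Cx3cl1 and Il15, had r = 0.57 (permutation p = 0.0432) and rho = 0.31 (p = 0.306) over 13 clones. Without 6421c2 and 7160c2, the clones farthest from the Cx3cl1 median, r was 0.03. Leaving out extreme clones narrows the range, which can by itself lower r. With levels taken relative to the surroundings within 2 Mb, r over the 13 clones was 0.26. The gene whose start or end peak tracked each one most closely, over 13 clones and 11899 to 11979 other genes, was Gbp3 for Cxcl10 (Pearson's r 0.89), Stx8 for Cxcl16 (0.87), Gnl2 for Cx3cl1 (0.87), Cyld for Ccl20 (0.86) and Kat2b for Il15 (0.92). Genes within 2 Mb were left out. Stx8 lies on chromosome 11, as Cxcl16 does, and Cyld lies on chromosome 8, as Cx3cl1 and Il15 do. Gbp3 (chromosome 3), Gnl2 (4) and Kat2b (17) lie on chromosomes other than those of their partners. These r were not taken relative to the surroundings. With so many genes compared over so few clones such values describe these clones only.

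Other genes of the same axis gave no call either. Of 19 further chemokines and T cell cytokines 7 had a start or end peak, and 0 of these 7 passed the adjusted test by edgeR, 2 with a fold change above 0 and 5 below (median -0.12). Ccl27a, a skin chemokine that binds CCR10, had the smallest p: 7.87, 11.4 and 13.4 CPM (lowest, median, highest) in T cell high and 3.62, 6.13 and 9.11 CPM in T cell low clones (log2 fold change 0.74, SE 0.32, unadjusted p = 0.0303, adjusted p = 0.706). Ccl2 and Ccl7, which attract monocytes, had log2 fold changes of -0.54 (adjusted p = 0.889) and -1.02 (adjusted p = 0.787). Of 19 receptors only Cxcr4, Ccr10, Ackr3 and Il15ra had a start or end peak, while Cxcr3, Cxcr6, Cx3cr1 and Ccr6, which lymphoid and myeloid cells express, had none. Il15ra had 9.07, 13.4 and 29.0 CPM in T cell high and 6.63, 12.7 and 24.7 CPM in T cell low clones (log2 fold change 0.37, adjusted p = 0.885). Of the processing enzymes, Adam10 and Adam17 had log2 fold changes of 0.06 and -0.17, and Dpp4 had no such peak. All 18 genes of interferon and NF-kB input had one, 0 passed the adjusted test, and 4 lay above and 14 below 0 with a median of -0.09. Over 11992 genes with a tested start or end peak the median was -0.07, with 38.8% above 0. In that list Ifngr2, a chain of the interferon gamma receptor, had the smallest p, with 15.6, 25.6 and 32.3 CPM in T cell high and 24.2, 32.7 and 46.7 CPM in T cell low clones (log2 fold change -0.49, SE 0.23, unadjusted p = 0.0438, adjusted p = 0.723). Irf1 (log2 fold change -0.26) and Jak1 (0.34) did not pass the test.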

How the data were processed

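The authors deposited raw counts for each merged peak, made with featureCounts 1.5.3 per the file headers and on mm10 per the submitters' processing notes. Neither the aligner nor the peak caller, nor whether reads were shifted, is given in the sources used here. Both ends of a fragment can be counted, so floors cover counting error only. All 13 columns were matched to samples by the clone name. Peaks were assigned to genes of a RefSeq table of GRCm38.p6, the assembly that mm10 represents.

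In R 4.3.3, edgeR 4.0.16 filtered peaks with filterByExpr by group, scaled libraries by TMM and ran the quasi-likelihood F-test, two-sided, with Benjamini-Hochberg adjustment at 0.05 over all tested peaks (or genes, for peak counts summed per 20 kb window). CPM are relative to TMM-scaled totals. Alternatives were DESeq2 1.42.0, limma-voom 3.58.1, other scalings and filters, parental tumour as a random block, regional offsets and leaving out each library. P-values set the group difference against the spread between clones, and the edgeR fits treat clones of 1 parental tumour as independent. With parental tumour as a random block in limma-voom, the estimated correlation within a tumour was 0.185 for peaks and 0.319 for gene sums. The genes and lists were chosen with earlier results of these data known. Named for each gene were its start or end peak and the other peak with the smallest p; other peaks were named after their values were seen.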

Additional observations from a re-analysis of the deposited data

Results flagged for a closer look

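In 6 of 42 groups of clones examined, 1 clone lay far from the rest by Dixon's criterion. The groups were start or end peak levels and summed levels of each gene, and the other named peaks. Chance alone meets this criterion in about 1 in 20 groups if values are independent and normally distributed. Here the values were untransformed CPM and the sums contain the start or end peaks, so that rate is only a rough guide. All 6 were the highest value of the T cell high group. Clone 6555c3 had 5.46 CPM at the Cxcl11 end peak, against 2.95 CPM in the next T cell high clone, and 42.8 CPM at the Cxcl16 end peak, against 19.3 CPM. Clone 6421c2 had 71.4 CPM at the Cx3cl1 start peak, against 33.3 CPM in the next clone, and 13.9 CPM at the Ccl20 start peak, against 7.93 CPM. Summed over all peaks of the gene, 6421c2 had 525.6 CPM at Cx3cl1, against 222.6 CPM, and 89.3 CPM at Ccl20, against 36.1 CPM.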

How the results depend on the processing

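No member peak was called in any of 22 settings, nor any member gene sum in the settings run for sums (all but the regional offset), and the smallest adjusted p of a member peak was 0.350. An unadjusted p under 0.05 appeared for member peaks in 7 of these settings, for at most 3 peaks at a time. The 3, of 39 member peaks tested, arose by edgeR without 2838c3. In that setting 6372 of all 59478 tested peaks passed the same threshold. Over all peaks the count of calls was 0 with edgeR, with limma-voom, with the other scalings and filters, with the random block and with the regional offset. It was 47 with DESeq2, and 0 to 42 when 1 library was left out, the 42 without 2838c3 and 0 without any other library. A setting with 0 calls over all peaks shows nothing particular to the member peaks. With a window of 5 kb in place of 20 kb, 29 peaks remained of 43.

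Of 148 fold changes under the other settings, 5 changed sign, all gene sums near 0: Cxcl10 to 0.034 with limma-voom and 0.080 with parental tumour as a random block, Cxcl16 to -0.032 and -0.024, and Ccl28 to -0.0035 with limma-voom. Leaving out 1 library changed the sign of 10 of 20 fold changes. The Cxcl9 sum, made of the 2 peaks at Sdad1 alone, kept its sign, from 0.13 to 0.46. Ranges for the other gene sums were -0.29 to 0.23 (Ccl20), -0.10 to 0.10 (Ccl28), -0.15 to 0.43 (Cx3cl1), -0.14 to 0.016 (Cxcl10), -0.043 to 0.11 (Cxcl16) and -0.0018 to 0.28 (Il15). For start or end peaks they were -0.12 to 0.47 (Cx3cl1), -0.53 to 0.0026 (Cxcl16) and -0.034 to 0.40 (Il15), and for the Cxcl10 window peak -0.0049 to 0.21. Mean levels moved by less than 1 SD with unscaled totals. The cause was not tested. No paired analysis was possible because replicate numbers follow the order of accession, and only 1 parental tumour, 6499, had a clone in each group; parental tumour was fitted as a random block instead. The shallowest library, 7160c2, limits detection to about 2.92 CPM.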
